A study of Arabidopsis thaliana with 6 samples.

Results

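NLR proteins are the intracellular immune receptors of plants, and 8 of the 33189 genes in the deposited gene table are described here. They were chosen by gene identifier: ADR1 (AT1G33560), ADR1-L1 (AT4G33300), ADR1-L2 (AT5G04720), SNC1 (AT4G16890), RPP4 (AT4G16860), RPP7 (AT1G58602), RPS4 (AT5G45250) and RRS1 (AT5G45260). Seedlings of Arabidopsis thaliana aged 7 days gave 6 RNA-seq libraries of total RNA, 3 of the wild-type ecotype Col and 3 of tsk-4, a mutant of TONSOKU (TSK) in the Col ecotype. TSK helps to repair damaged replication forks, and the series asked whether silencing marks on chromatin are kept without it. No infection, elicitor or other treatment is named in the labels, and whole seedlings were used, so that fewer cells of a type and less RNA per cell cannot be told apart. Whether the replicates were grown apart is not stated, so the p-values cover the spread among these libraries, which may be technical.

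An NLR combines a nucleotide-binding domain with leucine-rich repeats, and its N-terminal domain places it in a class. TIR-type NLRs act as enzymes on NAD+ once they are triggered, coiled-coil NLRs form channels in the plasma membrane, and helper NLRs with an RPW8-like domain, the ADR1 family among them, pass on signals from TIR-type sensors together with EDS1, PAD4 and SAG101. NLR genes lie in clusters of related copies, many of them close to transposable elements (TEs), and plants keep their expression within limits because too much NLR protein can set off defence without a pathogen.

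The nucleotide-binding loop (P-loop) is a feature that all 8 genes share, so its coding sequence is printed here for the 6 members of the ADR1, RPP5-cluster and RPP7 groups. Each stretch is 27 bases, read 5′ to 3′ on the coding strand from the TAIR10.1 reference, and the capitals mark the 3 codons of the core that holds the phosphates of the nucleotide.
ADR1: ggaatgagcggttcaGGGAAAACCact
ADR1-L1: ggaatgggcggtgttGGTAAAACCact
ADR1-L2: gggatgagtggttcaGGGAAAACCact
SNC1: ggacaatcagggattGGTAAGAGTacc
RPP4: ggacagtcagggattGGTAAGAGTacc
RPP7: ggaatgggtggtctcGGTAAAACCacc
Loops of SNC1 and RPP4 differ at 1 of the 27 bases and share the same core codons. ADR1 and ADR1-L2 differ at 2, ADR1 and ADR1-L1 at 5 and ADR1-L1 and ADR1-L2 at 7, while ADR1-L1 and RPP7, of different classes, differ at 4. Over the whole coding sequence, aligned bases were identical at 82.6% between SNC1 and RPP4, at 76.0% between ADR1 and ADR1-L2, at 74.4% between ADR1-L1 and ADR1-L2 and at 71.0% between ADR1 and ADR1-L1, against 59.3% to 69.7% for the remaining pairs. The close copies bear on counting. In exons, 100% of the 50-base stretches of ADR1, ADR1-L2, RPS4 and RRS1 occur at a single place in the genome, but 96.4% for ADR1-L1, 85.2% for RPP7, 78.1% for SNC1 and 70.5% for RPP4, so the values of the last 3 genes are less certain.

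All 8 genes were transcribed in Col seedlings and all passed the filter (1 TPM or more in 3 or more of the 6 libraries). The deposited TPM (transcripts per 1000000) divides reads by the full span of a gene, introns included. SNC1 had the highest mean level in Col, 74.4 TPM, which was also the highest Col mean of the 176 annotated NLR genes and lay at percentile 90.05 of the 19574 genes tested. ADR1-L2 followed with 17.9 TPM, RPP7 with 16.2, ADR1-L1 with 13.4, RPP4 with 12.1, RPS4 with 8.87, RRS1 with 7.42 and ADR1 with 7.31, the last at percentile 31.8. The Col libraries of ADR1-L2 and RPP7 overlapped, as did those of RRS1 and ADR1, and all other neighbours in this order were separated in every Col library. The order depends on the length used. Whether reads in introns were counted is not given in the sources used here. If they were, values per kb of exon, here and below, are too high for genes with long introns. RPP7 spans 19695 bases, of which 27.4% are exon, and on reads per kb of exon per 1000000 reads it stood at 26.5, second to SNC1 at 37.1. On that exon scale RPP4 (9.90), ADR1-L2 (9.37) and ADR1-L1 (8.73) overlapped from neighbour to neighbour in their Col libraries, and so did RPS4 (4.42), RRS1 (3.89) and ADR1 (3.74).

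**Figure D1:**
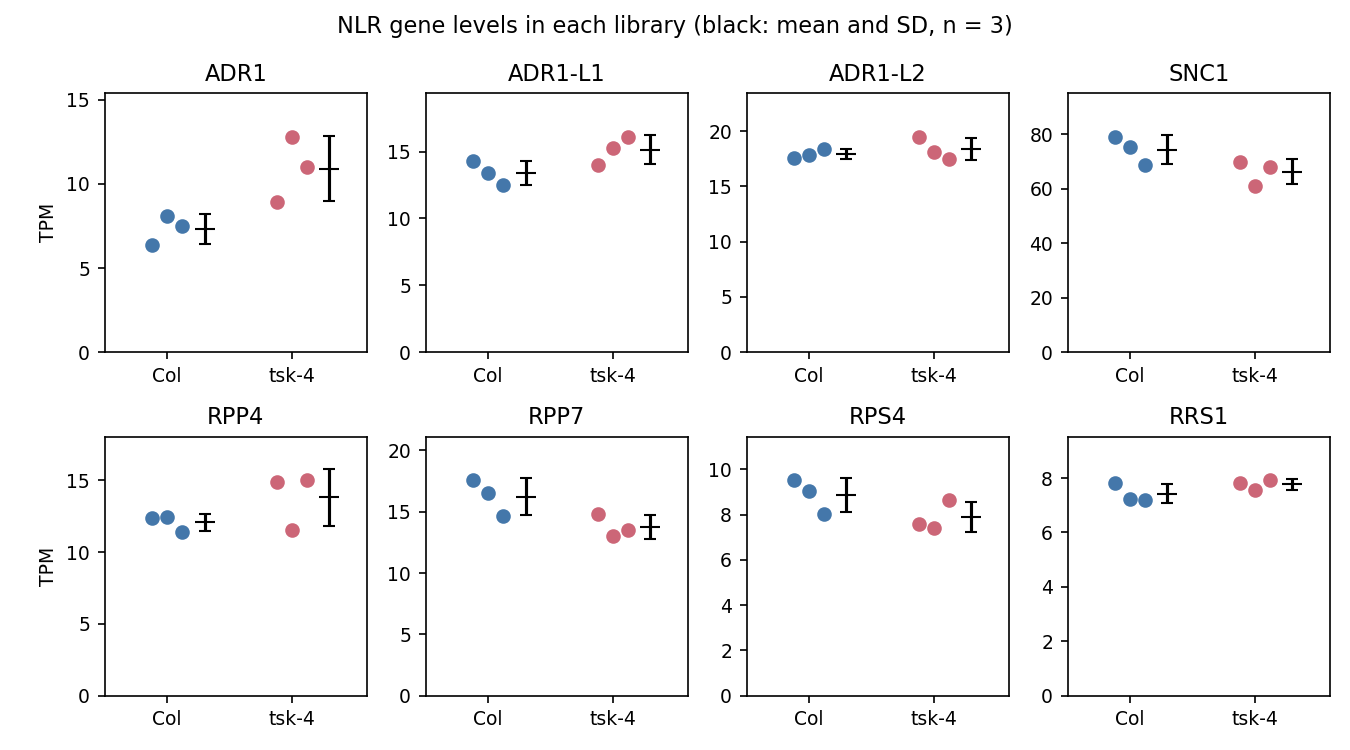
Level in TPM of the 8 NLR genes in each Col and tsk-4 library, with 1 panel per gene, axes from 0, points for libraries and black bars for the mean and SD of 3 libraries. ADR1 is the gene whose 3 tsk-4 libraries (8.93 to 12.8 TPM) all lie above its Col libraries (6.36 to 8.06 TPM); in the other 7 panels the genotypes overlap.

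The test compared tsk-4 with Col by limma on log2(TPM + 0.5) over all 19574 genes, with Benjamini-Hochberg adjustment and a call at an adjusted p under 0.05. Changes are therefore on the log2(TPM + 0.5) scale, which understates those of low genes. Of the 8 genes, 1 was called higher in tsk-4 and 0 lower, where 14.9% of all tested genes were called higher and 4.96% lower. The count of members is near that background. Their median log2 change was 0.05, beside 0.08 over all tested genes. In 1 of the 8 genes the libraries of the genotypes did not overlap, with tsk-4 higher, where 26.7% of all tested genes did not overlap with tsk-4 higher and 37.5% in either direction. How the libraries are scaled matters to these counts. Calls over all genes were 75.0% higher ones on TPM as deposited (2912 higher, 971 lower), and 52.9% after median-ratio scaling (1802 and 1607, or 9.21% and 8.21% of tested genes), which left 0 of 8 members called. A second test, limma-voom on the read numbers recovered from the TPM, called 1 member higher and 2 lower, with 9.67% of 21646 genes called higher and 9.03% lower.

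**Figure D2:**
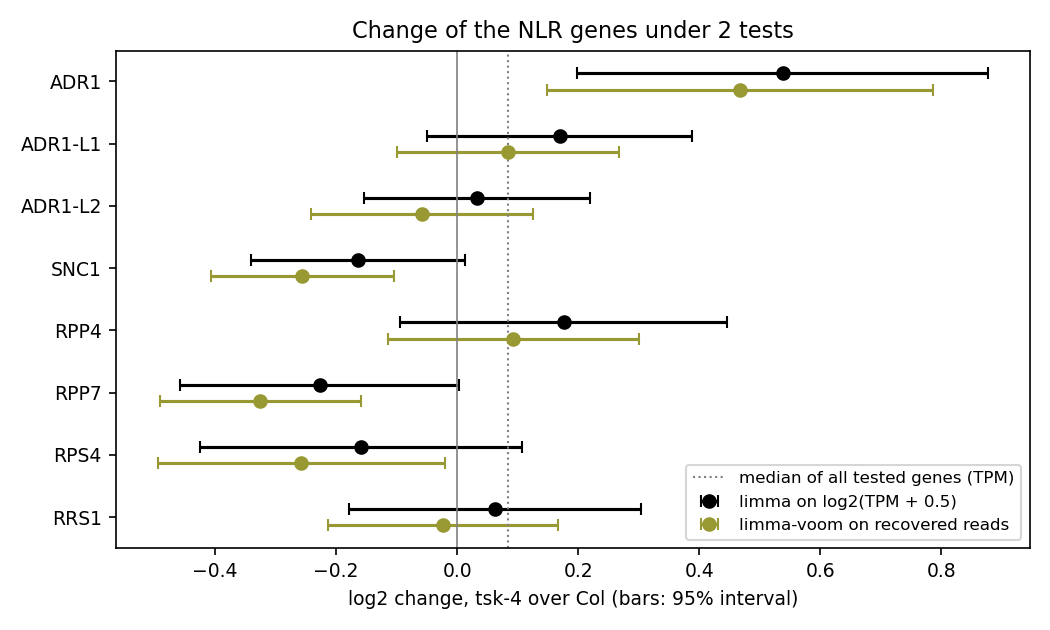
Log2 change of each NLR gene, tsk-4 over Col, with its 95% interval, from limma on log2(TPM + 0.5) in black and from limma-voom on recovered reads in olive; the dotted line is the median of all tested genes on TPM. Both intervals of ADR1 lie above 0, and the read-based intervals of SNC1, RPP7 and RPS4 lie below 0, of which RPS4 was not called after adjustment.

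The helper NLRs come first, since several sensors signal through them. ADR1 (chromosome 1, 12168768 to 12172119, plus strand) was higher in tsk-4. It stood at 6.36, 8.06 and 7.51 TPM in Col 1, 2 and 3 and at 8.93, 12.8 and 11.0 TPM in tsk-4 1, 2 and 3, from 130, 181 and 164 reads and 196, 274 and 240 reads. All 3 mutant libraries lay above all 3 Col libraries, and tsk-4 1 came closest to them. The means were 7.31 ± 0.866 and 10.9 ± 1.94 TPM (SD, n = 3), a log2 change of 0.54 (SE 0.15, limma adjusted p = 0.0354), and limma-voom gave 0.47 (adjusted p = 0.0405). The call is not stable. It was lost after median-ratio scaling (0.45, limma adjusted p = 0.078), after quantile normalization (0.44, 0.0884), and in both tests without Col 1, Col 2, tsk-4 2 or tsk-4 3, where limma gave 0.45, 0.61, 0.42 and 0.53 with adjusted p-values of 0.109, 0.0588, 0.113 and 0.101. Its direction was kept in all 19 alternatives.

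ADR1-L1 (chromosome 4, 16050456 to 16056526, minus strand), which acts redundantly with ADR1, stood at 14.3, 13.4 and 12.5 TPM in Col and at 14.0, 15.3 and 16.1 TPM in tsk-4. The lowest tsk-4 library lay below the highest Col library. Its log2 change was 0.17, with a 95% interval of -0.05 to 0.39 (limma adjusted p = 0.259), and 0.08 on reads (adjusted p = 0.555). Genes that overlap it on the other strand held at most 2 reads in any library. ADR1-L2 (chromosome 5, 1360589 to 1363907, plus strand), the third helper, was the steadiest of the 3, at 17.6, 17.8 and 18.4 TPM in Col and 19.5, 18.1 and 17.5 TPM in tsk-4. The mutant libraries lay on both sides of the Col libraries, the log2 change was 0.03 (interval -0.15 to 0.22, limma adjusted p = 0.82), and it turned to -0.06 after median-ratio scaling, after quantile normalization and on reads. ADR1-L3, a truncated relative, was listed at 0 in all libraries.

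Among the 3 helpers of the ADR1 family, ADR1 supplied the smallest part of the transcripts in every library. Of the reads per kb of exon that fell on the 3 helpers, ADR1 took 14.97%, 18.6% and 17.8% in Col and 19.1%, 25.2% and 22.2% in tsk-4, so the mutant libraries were all higher. The mean share of ADR1 was 17.1% in Col and 22.2% in tsk-4, that of ADR1-L1 was 40.0% and 39.4%, and that of ADR1-L2 was 42.9% and 38.4%. The log2 ratio of ADR1 to ADR1-L2 was -1.39, -1.10 and -1.24 in Col and -1.09, -0.48 and -0.65 in tsk-4, with no overlap. Its mean was 0.50 higher in tsk-4, with a two-sided exact permutation p = 0.1, which is the smallest p that 3 libraries against 3 can give, and 0.125 after adjustment over the 5 ratios computed. The ratio of ADR1 to ADR1-L1 was 0.37 higher in tsk-4 (exact p = 0.1, adjusted 0.125), and that of ADR1-L1 to ADR1-L2 was 0.14 higher with overlapping libraries (exact p = 0.4, adjusted 0.4).

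SNC1 (chromosome 4, 9500271 to 9505972, minus strand) is the TIR-type NLR whose gain-of-function allele makes plants dwarfed and resistant, and it is read as a gauge of NLR control. It stood at 79.2, 75.4 and 68.6 TPM in Col and at 69.8, 61.2 and 68.1 TPM in tsk-4, from 2548 to 2881 reads in Col and 2226 to 2607 in tsk-4. Only tsk-4 1 and Col 3 crossed. The means were 74.4 ± 5.37 and 66.4 ± 4.57 TPM (SD, n = 3), and the log2 change of -0.16 did not pass (interval -0.34 to 0.01, limma adjusted p = 0.178). On recovered reads the change was -0.26 and was called (limma-voom adjusted p = 0.0197), but not when Col 1, Col 2, tsk-4 2 or tsk-4 3 was left out (adjusted p from 0.055 to 0.0987).

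RPP4 (chromosome 4, 9488466 to 9495837, minus strand), a neighbour of SNC1 in the RPP5 cluster, confers resistance to the downy mildew Hyaloperonospora arabidopsidis. It stood at 12.4, 12.5 and 11.4 TPM in Col and at 14.9, 11.5 and 15.02 TPM in tsk-4. In the mutant, tsk-4 2 lay inside the Col range and the other libraries above it. The log2 change was 0.18 (interval -0.09 to 0.45, limma adjusted p = 0.34) and 0.09 on reads (adjusted p = 0.568). SNC1 and RPP4 thus had changes of opposite sign, and the log2 ratio of SNC1 to RPP4 was 2.63, 2.55 and 2.54 in Col and 2.19, 2.36 and 2.14 in tsk-4. That ratio was lower in every mutant library, by 0.34 in the mean (exact permutation p = 0.1, adjusted 0.125). How reads shared by the close copies were counted is not given, and their part in the ratio was not tested.

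The RPP5 cluster, SNC1 and RPP4 included, held a single call on TPM. Of its 9 genes 8 were tested, 0 were called higher and 1 lower (12.5% called, against 19.8% of all tested genes). The median log2 change was -0.02, and on reads SNC1 was called lower as well. The called gene was RLM3, a TIR gene without leucine-rich repeats, which went from 63.3, 58.8 and 50.1 TPM in Col to 45.3, 36.3 and 44.6 in tsk-4, a log2 change of -0.44 (limma adjusted p = 0.0233). Its call was lost without Col 1, without Col 2 and without tsk-4 2. RPP5, the founder of the cluster, stood at a mean of 24.8 TPM in Col and 22.2 in tsk-4 and was not called. The TE gene AT4G16870 lies 68 bases from RPP4, and its 308, 339 and 344 reads in Col overlapped the 290, 262 and 406 reads of tsk-4. AT4G16910, 3703 bases from SNC1, had 26, 18 and 25 reads in Col against 15, 17 and 22 in the mutant.

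RPP7 (chromosome 1, 21746354 to 21766048, plus strand) is a coiled-coil NLR against downy mildew, and is known as a gene whose full-length transcript depends on silencing marks on a TE inside its first part, read by EDM2. It stood at 17.6, 16.5 and 14.6 TPM in Col and at 14.9, 12.98 and 13.5 TPM in tsk-4. The mutant libraries were the lower ones apart from tsk-4 1, which lay just above Col 3. The means were 16.2 ± 1.495 and 13.8 ± 0.966 TPM (SD, n = 3), and the log2 change of -0.23 did not pass (interval -0.46 to 0.003, limma adjusted p = 0.155).

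The read-based test did call RPP7 lower. The gene had 2109, 2174 and 1875 reads in the Col libraries against 1916, 1632 and 1731 in the mutant, which gave a log2 change of -0.33 relative to all genes (limma-voom adjusted p = 0.00886). Of the 6 fits that left out a library, the one without Col 2 lost the call (-0.30, limma-voom adjusted p = 0.0547), and the other 5 ran from -0.41 to -0.27. Median-ratio scaling of TPM gave -0.32 (limma adjusted p = 0.0639).

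Reads on the TE gene inside RPP7 overlapped between genotypes. AT1G58561 (chromosome 1, 21748675 to 21753246) lies in the longest intron of RPP7, 7384 bases, and had 74, 75 and 51 reads in the Col libraries against 66, 67 and 74 in the mutant, 200 and 207 in all. How reads that fall on both annotations were assigned is not given in the sources used here. EDM2 stood at 18.6 TPM in Col and 16.9 in tsk-4 (log2 change -0.13, limma adjusted p = 0.36). Its RNA-binding partner AT5G11470 (IBM2 or ASI1) stood at 2.098 and 2.71 TPM (log2 change 0.31, limma adjusted p = 0.305), and neither was called. The gene table gives 1 value per gene, so transcripts that end inside the intron and full-length ones are counted together. Among 10 RPP7 relatives, RPP7 included, 7 were tested and 0 were called in either direction on TPM, with a median log2 change of 0.26; on reads RPP7 was the gene called. CW9, a relative at 6.70 TPM in Col and 8.25 in tsk-4, was not called (log2 change 0.27, limma adjusted p = 0.256).

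RPS4 and RRS1 work as a pair: RRS1 carries a WRKY domain that bacterial effectors attack, and RPS4 starts the response. Their genes sit head to head on chromosome 5 and are transcribed apart from each other, RPS4 from 18326175 down to 18321764 on the minus strand and RRS1 from 18326203 up to 18332920 on the plus strand. The whole annotated gap between them is 27 bases (TAIR10.1, chr5:18326176-18326202, plus strand), shown because it is all that separates the annotated starts.
RPS4-RRS1 gap: tgagatttgagtggttgaatgtccaat

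RPS4 stood at 9.52, 9.04 and 8.04 TPM in Col and at 7.58, 7.42 and 8.66 TPM in tsk-4. The genotypes overlapped, with tsk-4 3 above Col 3. The log2 change was -0.16 (interval -0.43 to 0.11, limma adjusted p = 0.382) and -0.26 on reads (limma-voom adjusted p = 0.126), which was called on reads when Col 3 was left out (-0.33, limma-voom adjusted p = 0.0461). RRS1 stood at 7.82, 7.25 and 7.20 TPM in Col and at 7.82, 7.56 and 7.92 TPM in tsk-4. Its libraries differed little in either genotype. The log2 change was 0.06 (interval -0.18 to 0.30, limma adjusted p = 0.729) and turned to -0.02 after median-ratio scaling and on reads. Neither gene of the pair was called on TPM. The log2 ratio of RPS4 to RRS1 was 0.27, 0.30 and 0.15 in Col and -0.04, -0.02 and 0.12 in tsk-4, with no overlap. It averaged 0.24 ± 0.0796 in Col against 0.02 ± 0.0892 in the mutant (SD, n = 3). The exact permutation p was 0.1, which any ratio without overlap gives here, and 0.125 after adjustment. The share of other gene pairs whose ratio does not overlap was not computed.

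**Figure D3:**
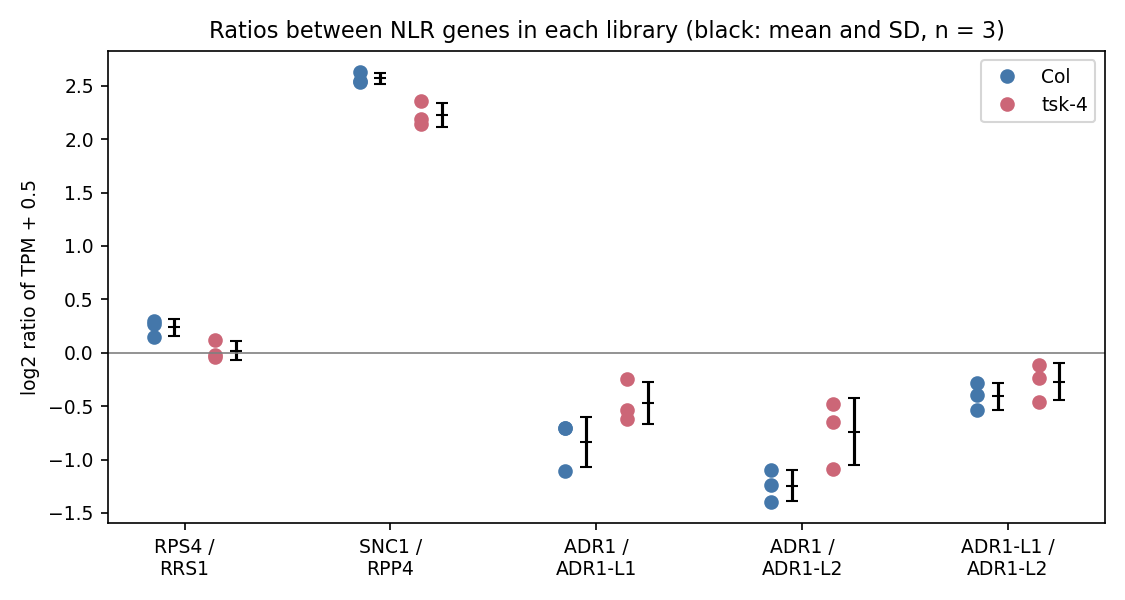
Log2 ratio of TPM + 0.5 between NLR genes of 1 family, cluster or pair in each library, with black bars for the mean and SD of 3 libraries. For RPS4 over RRS1 and SNC1 over RPP4 the tsk-4 libraries lie below the Col libraries, for ADR1 over ADR1-L1 and over ADR1-L2 they lie above, and for ADR1-L1 over ADR1-L2 they overlap.

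The genes around the members were searched for a shared regional change. Of 156 genes that start within 50 kb of a member, 86 were tested, 11 were called higher and 4 lower on TPM (17.4% called, against 19.8% of all tested genes), and 5 higher and 8 lower on reads. Around ADR1, 3 of 15 tested neighbours were called higher on TPM and 0 on reads, where 2 were called lower. Around RPP7, 1 of 7 was called higher on TPM and 0 in either direction on reads. The TE gene AT1G33570, 882 bases from ADR1, had 0 reads in each Col library against 1, 1 and 3 in the mutant. AT1G58889, a TE gene 31045 bases from RPP7, had 11, 9 and 10 reads in the Col libraries against 25, 14 and 26 in the mutant, with no overlap. The reads of AT4G16870, AT4G16910 and AT1G58561, given above, did overlap between genotypes. The share of all TE genes without overlap is not given here, and AT1G33570 and AT1G58889 were named after their values were seen. No conclusion is therefore drawn from their reads. The letters TTGAC, the core that WRKY factors bind, were searched on both strands of the 250 bases before each annotated start. They occur once before SNC1 and once before RRS1 and not in the windows of the other 6 genes. Of 27443 protein-coding genes 44.9%, and of the 176 annotated NLR genes 55.7%, have at least 1 match. Some windows hold parts of other genes: that of RRS1 overlaps RPS4, that of RPS4 overlaps RRS1, and that of RPP4 overlaps AT4G16880. The window of ADR1-L1 overlaps AT4G08785.

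NLR genes beyond the 8 were called in both directions, on TPM less often than tested genes as a whole. The annotation names 168 further NLR genes, 11 of them listed at 0 in all libraries, and of 119 tested 8 were called higher and 3 lower (9.24% called, against 19.8% of all tested genes), with a median log2 change of 0.03. On reads it was 9 higher and 9 lower of 146, and median-ratio scaling gave 8 and 5 of 119. The libraries did not overlap for 17 higher and 12 lower of the 119, beside 26.7% and 10.9% of all tested genes. The TIR class held 6 higher and 2 lower of 74 tested, the coiled-coil and other class 2 and 1 of 42, and the RPW8 class 0 of 3. RPP13, a coiled-coil NLR named for downy mildew resistance, rose most among the called genes, from 34.8, 29.0 and 23.4 TPM in Col to 63.7, 52.0 and 52.3 in tsk-4 (log2 change 0.95, limma adjusted p = 0.00215). RPP1, a TIR-type NLR named in the same way, went from 45.1, 41.9 and 38.6 TPM to 71.8, 62.3 and 71.8 (0.71, limma adjusted p = 0.000699). AT4G19520 rose by 0.85, AT3G44400 by 0.70 and AT3G44670 by 0.66 on the log2 scale, with limma adjusted p-values of 0.008, 0.0203 and 0.000806. The genes that fell were AT3G04210, with a mean of 7.23 TPM in Col and 3.99 in tsk-4 (log2 change -0.78, limma adjusted p = 0.00614), RLM3, and AT1G63360 (-0.34, limma adjusted p = 0.0467).

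**Figure D4:**
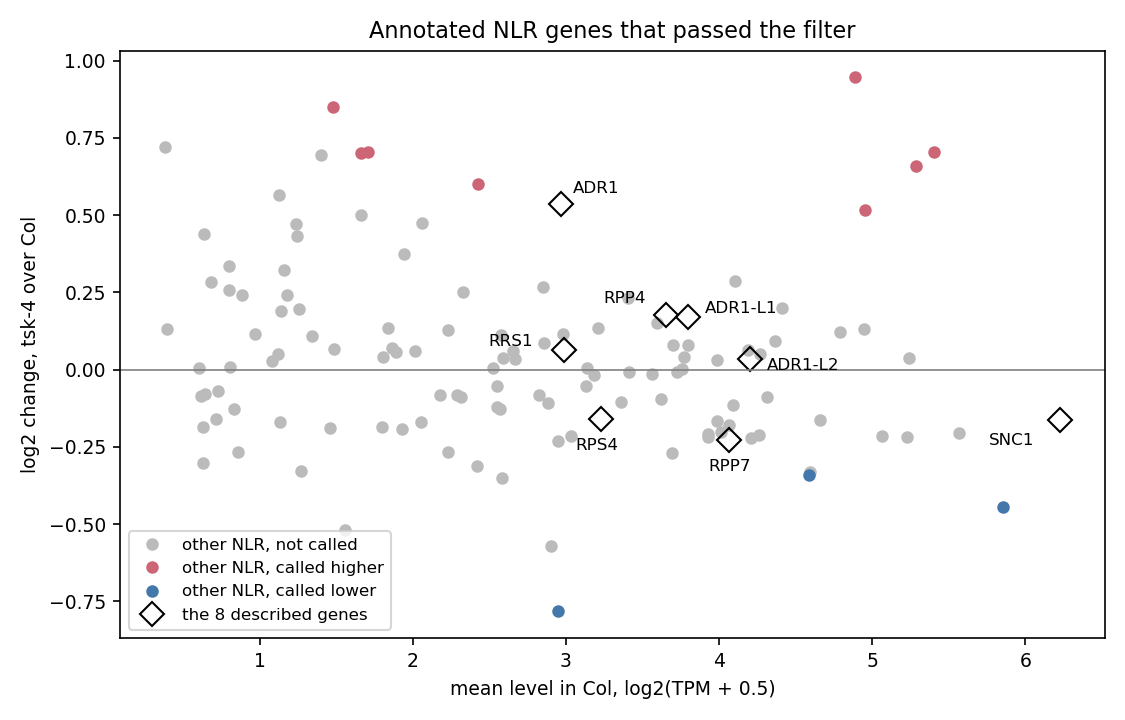
Log2 change, tsk-4 over Col, against the mean level in Col, log2(TPM + 0.5), for annotated NLR genes that passed the filter; diamonds are the 8 genes described, red and blue points are other NLR genes called higher (8) and lower (3), and grey points were not called. SNC1 has the highest level in Col, and ADR1 is the described gene farthest from 0.

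By profile over the 6 libraries, the annotated NLR gene nearest to each member was found by the mean absolute difference of log2(TPM + 0.5) after subtraction of the Col mean, among 119 genes. AT5G18370 was nearest to ADR1, at 0.177, and it stood at 3.32, 3.20 and 3.51 TPM in Col and 4.46, 4.47 and 4.49 in tsk-4. The other members had closer matches: AT5G63020 to SNC1 at 0.0342, RPP5 to RPS4 at 0.0469, AT5G48620 to RPP4 at 0.054, AT1G61190 to RPP7 at 0.0565 and WRKY19, an NLR fused to a WRKY domain, to ADR1-L1 at 0.0674. AT5G35450 was nearest to both ADR1-L2 (0.0532) and RRS1 (0.032). The median distance to the 119 genes was 0.374 for ADR1 and 0.168 to 0.206 for the other members, so distances are not comparable between ADR1 and the others. All distances are descriptions over libraries that also differ in scale.

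Genes that work with NLR proteins were counted from lists. In the EDS1 node, through which the ADR1 family signals, 6 of 8 genes were tested and 0 were called in either direction on TPM and on reads, with a median log2 change of 0.29. EDS1, the lipase-like hub, stood at 20.8, 18.3 and 19.3 TPM in Col and 21.2, 23.7 and 26.8 in tsk-4, with no overlap (log2 change 0.29, limma adjusted p = 0.081). PAD4, its partner in ADR1 signalling, stood at means of 5.45 and 6.74 TPM (0.29, limma adjusted p = 0.154) and SAG101, the partner of the other helpers, at 6.31 and 8.80 (0.44, limma adjusted p = 0.0901). EDS1, PAD4 and SAG101 were thus the 3 of the 6 tested genes whose mutant libraries all lay above Col, and none passed. Of all tested genes, 26.7% did not overlap with tsk-4 higher. On reads the log2 changes of EDS1, PAD4 and SAG101 were 0.20, 0.22 and 0.38. AT5G66900, of the NRG1 helper family, stood at 11.8 and 11.1 TPM.

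Of 11 chaperones and turnover factors 10 were tested, and 1 was called higher, SGT1B, a co-chaperone that NLR proteins need to fold, at means of 60.9 and 77.0 TPM (log2 change 0.34, limma adjusted p = 0.00819). Of 16 chromatin and RNA regulators of NLR genes, all tested, 2 were called higher (12.5%) and 0 lower. Over all tested genes 14.9% were called higher, so the share was below that background in this list and in the chaperone list. SAR3, the nucleoporin found as MOS3 in a screen for suppressors of snc1, overlaps AT1G80670 and went from 23.5, 20.7 and 23.0 TPM in Col to 44.8, 43.1 and 49.9 in tsk-4 (log2 change 1.02, limma adjusted p = 8.91e-05). TPR1, a co-repressor that acts with SNC1, went from means of 25.8 to 40.3 TPM (0.63, limma adjusted p = 0.00108). Both changes were called on reads as well. The list of 30 other named NLR genes, 24 tested, held 3 higher, RPP1 and RPP13 among them, and 1 lower (RLM3) on TPM. That is 16.7% called, against 19.8% of all tested genes. On reads this list held 3 higher and 3 lower.

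Cell surface receptors and partners were called higher in 1 of 12 tested, or 8.33%, where 14.9% of all tested genes were called higher. The called gene was SOBIR1, the co-receptor kinase of receptor-like proteins, at means of 17.6 and 26.8 TPM (log2 change 0.60, limma adjusted p = 0.00342). Outputs of salicylic acid, the hormone of this branch of immunity, were called higher in 4 of 9 tested and lower in 0, with 3 called after median-ratio scaling and 1 when any single tsk-4 library was left out. Of the 4 called genes, BGL2, PR1 and PBS3 were under 1 TPM in every Col library and passed the filter through tsk-4, and failed it when a tsk-4 library was left out, so the count does not describe the list. BGL2, a glucanase known as PR2, held 0.00, 0.00 and 0.10 TPM in Col and 4.86, 14.4 and 10.8 in tsk-4 (limma adjusted p = 0.000101). WRKY70, a regulator of salicylic acid genes, went from 7.29, 5.31 and 4.33 TPM to 14.9, 11.1 and 16.8 (log2 change 1.27, limma adjusted p = 0.00291), and PR1 from 0.36, 0.50 and 0.17 to 2.03, 5.56 and 14.1 (limma adjusted p = 0.00684). Taking these NLR-related lists as 1 set without the 8 members, 87 of 104 genes were tested, 11 were called higher and 1 lower (13.8% called, under the 19.8% of all tested genes). BGL2, PR1 and PBS3 are among the 11, so this share does not describe the set either.

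Libraries and labels were checked once for all of this. The gene table held 13726929 to 14946295 reads per library, and 1 read in 1 kb was worth 0.149 to 0.164 TPM, so the members rest on 130 to 2881 reads per library. TSK itself stood at 3.73, 3.35 and 3.78 TPM in Col and 0.83, 0.96 and 0.92 in tsk-4 (log2 change -1.55, SE 0.20, limma adjusted p = 0.000966). Leaf markers were called lower in tsk-4 in 4 of 4 genes, with summed levels of 52934 to 55166 TPM in Col and 39707 to 41050 in tsk-4. Root markers were called higher in 3 of 4, with sums of 141 to 161 TPM and 184 to 218. Over all tested genes 4.96% were called lower and 14.9% higher. After median-ratio scaling 4 leaf markers were called lower and 2 root markers higher, beside 8.21% and 9.21% of all tested genes. Of the named markers, CAB3, RBCS3B and RBCS1A fell by 0.57, 0.47 and 0.35 and PRP3, EXPA18 and AT1G30870 rose by 0.44, 0.54 and 0.38 on the log2 scale. These shifts accompany every change given above, and their part in the results was not tested. Seed markers were called in 0 of 4 genes, with sums of 39.1 to 114 TPM in Col and 40.3 to 95.1 in tsk-4, CRA1 and GEA6 among them. No pollen marker passed the filter: AT3G07820 was listed at 0 in all libraries, sks14 in all but 1, and AT3G28750 stood at most at 1.25 TPM.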

How the data were processed

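RNA-seq of 3 Col and 3 tsk-4 libraries was read from TPM tables that the authors deposited, 1 for genes and 1 for TE genes, each summing to 1000000 per library. A table of TE fragments was not used here. Sample titles gave groups and replicate numbers. The submitters' processing notes name fastp 0.20.1, HISAT2 2.1.10, HTSeq 0.11.2, DESeq2 1.26.0 and, as build, TAIR10. How strand and reads with several matches were handled is not given in the sources used here, so overlapping and near-identical genes are uncertain.

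Multiplied by gene span, TPM above 0 came out as whole reads (within 0.02 reads) for 100% of values in the gene table and for 99.76% or more in the TE gene table. Spans and coordinates (1-based) came from TAIR10.1, to which 33056 of 33189 genes and 3901 of 3901 TE genes matched.

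The main test was limma 3.58.1 under R 4.3.3 on log2(TPM + 0.5), with a trend of variance over the mean. The second was limma-voom on recovered reads scaled by median-ratio factors, for genes with 10 or more reads in all. Both were checked on simulated data. Alternatives were median-ratio and quantile scaling, pseudocounts of 0.1 and 1, no filter, a replicate block and each library left out. Leaving out libraries was repeated with limma-voom for the members and TSK, chosen after seeing the data. Ratios were compared by two-sided exact permutation, in which any ratio without overlap gets p = 0.1. Other steps used Python 3.11.15, pandas 2.3.3, SciPy 1.17.1, Biopython 1.88 and matplotlib 3.10.9.

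The members, gene lists and tests were chosen with earlier results of these data known, and no list was tested as a set. The text names the members, TSK, up to 3 called genes per list in order of adjusted p (for a list with no call, the 2 genes of highest mean TPM), up to 6 higher and 6 lower annotated NLR genes with the largest change and no overlap between genotypes, and the nearest NLR gene by profile. PAD4, SAG101, EDM2, AT5G11470, RPP5, ADR1-L3, AT3G07820, RLP23, SARD1, AT3G44630, genes overlapping a member and TE genes near members were named outside that rule, after their values were seen. Some genes and sequences that the rule covers are not reported here.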

Additional observations from a re-analysis of the deposited data

How the results depend on the processing

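Each member had 19 alternatives, and ranges with single libraries left out cover both tests. ADR1-L1 and RPP4 stayed uncalled with a positive change (0.03 to 0.22 and 0.03 to 0.30). ADR1 stayed positive but lost its call without a filter (0.54, limma adjusted p = 0.0608), after median-ratio scaling (0.45) and after quantile normalization (0.44), and ran from 0.34 to 0.67 with libraries left out (adjusted p from 0.0124 to 0.159). SNC1 was called lower on reads (-0.26) and after quantile normalization (-0.29), with -0.32 to -0.11 when libraries were left out. RPP7 was called lower on reads (-0.33), with -0.41 to -0.17, and RPS4 on reads without Col 3, with -0.33 to -0.11. ADR1-L2 turned negative on reads (-0.058), after median-ratio scaling (-0.056) and after quantile normalization (-0.062), with -0.099 to 0.065 when libraries were left out. RRS1 turned negative under the same settings (-0.024, -0.023 and -0.030), with -0.053 to 0.098. No call was attached to ADR1-L2 or RRS1 under any of these settings, and the cause of the shifts was not tested.

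Over all genes, 1802 were called higher after median-ratio scaling, 1704 after quantile normalization and 1783 to 3376 with a library left out. Called lower were 1954 on reads, 1607 after median-ratio scaling, 1660 after quantile normalization and 501 to 1162 with a library left out. Other NLR genes gave 5 to 8 higher and 1 to 5 lower calls with a library left out, and 9 lower on reads, 5 after median-ratio scaling and 5 after quantile normalization. The pathway lists gave 7 to 12 higher and 0 to 1 lower with a library left out, and 3 lower on reads. Tested genes of these lists included BGL2, PR1 and PBS3 wherever they passed the filter. Neighbouring genes gave 5 higher on reads, 6 after median-ratio scaling, 5 after quantile normalization and 3 to 8 with a library left out, and 8 lower on reads. TSK was called under the 16 alternatives that gave it a value, and without a Col library it failed the filter on TPM.

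Libraries with the same replicate number had deviations that correlated at 0.115, -0.0868 and -0.109 over 19574 genes, which shows no clear pairing by number. With 3 libraries per group such correlations cannot settle whether same-numbered libraries share a batch, and the labels do not say. With the replicate block, 2310 genes were called higher and 750 lower, ADR1 kept its call (limma adjusted p = 0.0239), no other member was called, and not every library correlated best with its own number.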

Other observations

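Of the 8 further NLR genes called higher in tsk-4, 4 lie in a stretch of chromosome 3 from 16044662 to 16221722 (TAIR10.1), which was picked after the values were seen. It holds 4 annotated NLR genes, all TIR-type. Its ends were set at called genes, AT3G44400 and AT3G44670, so the count below follows in part from the choice. Over all tested genes 14.9% were called higher on TPM and 9.67% on reads. In the stretch 4 of 4 were called higher on TPM and on reads. They are AT3G44400, RPP1, AT3G44630 and AT3G44670. AT3G44630 went from 31.5, 33.0 and 26.9 TPM in Col to 46.5, 39.2 and 45.5 in tsk-4, and AT3G44670 from 40.4, 38.9 and 36.1 to 64.0, 55.3 and 64.1. In each of these genes all 3 mutant libraries lay above all 3 Col libraries, as they did in 26.7% of all tested genes. The copies are close relatives: of their 50-base exon stretches, 55.9% in RPP1, 64.1% in AT3G44670, 71.2% in AT3G44630 and 82.4% in AT3G44400 occur at a single place in the genome, and the part of shared reads in these changes was not tested. SNC1 and RPP4, in a cluster of TIR-type genes on chromosome 4, were not called higher in any of their 19 alternatives.

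RLP23, a receptor-like protein that senses a microbial peptide, was below the TPM filter. It stood at 0.06, 0.10 and 0.00 TPM in Col and 0.91, 1.49 and 2.48 in tsk-4, and limma-voom called it higher (adjusted p = 0.00372). In reads, RLP23 held 1, 2 and 0 in Col and 17, 27 and 46 in tsk-4. It thus reached the minimum of reads for limma-voom only through tsk-4, so no conclusion is drawn from its call. SARD1, a regulator of salicylic acid synthesis, stood at 0.33, 0.07 and 0.10 TPM in Col and 0.65, 0.91 and 1.27 in tsk-4 and was also below the filter, and limma-voom called it higher (adjusted p = 0.0072).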
